A study of Mus musculus with 5 samples.

Results

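The RNAs described here are 8 long noncoding RNAs of the mouse, *Malat1*, *Neat1*, *Kcnq1ot1*, *Meg3*, *H19*, *Gas5*, *Snhg1* and *Snhg8*, out of 21019 genes with values in the deposited table. They were taken by name: RNAs that are kept in the nucleus or act on imprinted chromosome domains, set beside noncoding host genes of small nucleolar RNAs (snoRNAs). The choice was made with earlier results of these data known. The libraries come from translating ribosome affinity purification (TRAP), in which a GFP-tagged L10a ribosomal protein, switched on by Cre recombinase under the podocin promoter, is pulled down together with the RNA on podocyte ribosomes. The 2 control libraries, WT-N1 and WT-N3, came from *Pfn1* +/+ *Pod-Cre Rosa-Dtr* fl mice, and the 3 libraries labelled *Pfn1*-KO, Pfn1KO-N2, Pfn1KO-N3 and Pfn1KO-N4, came from *Pfn1* fl/fl mice with the same *Pod-Cre* and *Rosa-Dtr* fl alleles, in which exon 1 of the profilin1 gene is flanked by loxP sites. Both groups carried the Cre driver, the diphtheria toxin receptor allele and the TRAP allele, were untreated and 3 weeks old, and every library pooled 3 mice. The labels speak of isolated podocytes and an RNA column kit with poly(A) selection, whereas the methods describe the ribosome pulldown from kidney cortex. Values are FPKM, fragments scaled by exon length and by library size, as deposited.

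Long noncoding RNAs carry no long reading frame, and many never leave the nucleus. *Malat1* gathers in nuclear speckles beside the splicing machinery, and *Neat1* is the scaffold of paraspeckles, nuclear bodies that hold proteins such as NONO and SFPQ. *Kcnq1ot1*, *Meg3* and *H19* are imprinted, which means that only 1 parental copy is transcribed, and *Kcnq1ot1* silences neighbouring genes from within the *Kcnq1* locus. *Gas5*, *Snhg1* and *Snhg8* differ from these in that their introns hold snoRNAs, which guide the modification of ribosomal RNA, while their spliced exons are exported, meet ribosomes and, for *Gas5* and *Snhg1*, are known targets of nonsense-mediated decay (NMD). The nuclear RNAs are therefore set beside the host genes, whose spliced RNA does reach ribosomes.

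*Malat1* and *Neat1* are neighbours on chromosome 19 (GRCm38, minus strand), at chr19:5795690-5802672 and chr19:5824708-5845478, with 22035 bases between them. *Malat1* and the long form of *Neat1* do not end in an ordinary poly(A) tail: RNase P cuts both, and an A-rich tract folds with U-rich stretches upstream into a triple helix that protects the new end. The 110 bases up to the end of the A-rich tract are shown because they are what the pair shares in sequence, and capitals mark every stretch of 10 or more bases found in both. They come from the GENCODE vM21 transcripts, 5′ to 3′, at chr19:5795982-5796091 and chr19:5824708-5824817, minus strand.
Malat1 3′ end: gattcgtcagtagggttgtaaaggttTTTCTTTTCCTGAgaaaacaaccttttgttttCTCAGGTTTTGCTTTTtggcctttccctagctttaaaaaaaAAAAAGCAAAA
Neat1 3′ end: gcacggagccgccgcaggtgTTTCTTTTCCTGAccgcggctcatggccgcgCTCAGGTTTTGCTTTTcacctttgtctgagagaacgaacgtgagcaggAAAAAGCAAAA
The 16-base stretch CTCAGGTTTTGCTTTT occurred in the longest transcript of 2 of 20985 genes searched, and these were *Malat1* and *Neat1* themselves. TTTCTTTTCCTGA was found in 14 genes and AAAAAGCAAAA in 208 (0.991%), and 2 genes held all 3 stretches.

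*Kcnq1ot1* is a single unspliced transcript of 93092 bases at chr7:143203458-143296549, minus strand, inside *Kcnq1* and antisense to it. It holds a run of 41 A, the longest A run of the 8 RNAs, and a longer run than 99.9% of the long noncoding genes tested. The run is shown because the libraries were selected for poly(A) RNA. It lies within chr7:143226930-143227000 (GENCODE vM21, GRCm38, minus strand), with the run in capitals.
Kcnq1ot1 A run: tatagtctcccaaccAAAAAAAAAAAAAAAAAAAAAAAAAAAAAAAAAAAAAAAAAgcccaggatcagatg
The longest A runs of the other RNAs were 16 bases in *Meg3*, 12 in *Malat1*, 7 in *Neat1*, 5 in each of *Gas5*, *Snhg1* and *Snhg8*, and 4 in *H19*, against a median of 5 over the long noncoding genes tested. The longer transcripts of this group have more places in which a run can occur.

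Transcripts of host genes are known to begin with a terminal oligopyrimidine tract (5′TOP), a C followed by further C or U, which ties translation to growth signals. The annotated starts of the host genes are therefore shown beside that of *Malat1*, from 25 bases before to 35 bases after and including the first base, with the pyrimidine run that starts at the first base in capitals. The sequences are from the RefSeq promoter table of GRCm38.p6, where 6 of the 8 RNAs had an entry. The windows are chr19:5802638-5802697 (minus strand), chr1:161034576-161034635 and chr1:161035141-161035200 (plus strand), chr19:8723462-8723521 (plus strand) and chr3:123508302-123508361 (minus strand).
Malat1 start: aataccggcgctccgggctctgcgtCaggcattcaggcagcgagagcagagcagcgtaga
Gas5 first start: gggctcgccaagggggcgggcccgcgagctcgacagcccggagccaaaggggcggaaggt
Gas5 second start: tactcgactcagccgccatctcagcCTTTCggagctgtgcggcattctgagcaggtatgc
Snhg1 start: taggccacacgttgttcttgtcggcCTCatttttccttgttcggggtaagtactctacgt
Snhg8 start: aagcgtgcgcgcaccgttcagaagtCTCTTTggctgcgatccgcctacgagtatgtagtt
A run of at least 5 pyrimidines that begins with C was present at the second *Gas5* start (5 bases) and at the *Snhg8* start (6 bases), as in 823 of all 32851 windows (2.51%). The run was 3 bases at *Snhg1*, 1 base at *Malat1* and 0 at the first *Gas5* start, as annotated. Of the snoRNA genes annotated inside these hosts, 10 lie in *Gas5*, 8 in *Snhg1* and 1 in *Snhg8*, and none of them has values in the table.

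The libraries differ as wholes, and every value below is to be read against that. Library sizes, recovered from the values, ran from 18186900 to 24871893 reads. The controls listed 6901 and 7528 genes above 0, and the libraries labelled *Pfn1*-KO 20435 to 20980. The ribosomal RNA gene CT010467.1 was at 291221 and 311036 FPKM in WT-N1 and WT-N3, 133787 FPKM in Pfn1KO-N3 and at 346 and 194 FPKM in Pfn1KO-N2 and Pfn1KO-N4, so Pfn1KO-N3 stood apart from its group. *Pfn1*, the targeted gene, was at 13.6 and 11.8 FPKM for WT-N1 and WT-N3 and 41.9, 17.2 and 27.8 FPKM in Pfn1KO-N2, Pfn1KO-N3 and Pfn1KO-N4. As deposited it was thus not lower in the group with the knockout label (1.05 on the log2 scale, limma Benjamini-Hochberg adjusted p = 0.123, with the median gene at 1.75). It was at -0.70 after median-ratio scaling and -0.36 after quantile normalization. The paper reported loss of *Pfn1* in podocytes by real-time PCR, Western blotting and immunofluorescence, on isolated podocytes and kidney sections rather than on these libraries. Without Pfn1KO-N3 *Pfn1* was called higher (1.36, adjusted p = 0.0463), and likewise when array weights were used (1.52, adjusted p = 0.0158), in limma with Benjamini-Hochberg. With limma on log2(FPKM + 1), 10251 of the 14631 genes tested (70.1%) were higher and 312 (2.13%) were lower in the *Pfn1*-KO group at a Benjamini-Hochberg adjusted p under 0.05, and the median gene was shifted by 1.75 on the log2 scale. Fold changes are therefore also given after subtraction of this shift. In bulk RNA, fewer cells of a type and less RNA per cell cannot be told apart.

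Marker lists are to be read against the 70.1% higher and 2.13% lower of all genes tested. Of 12 podocyte markers tested, 9 were higher and 0 lower, with summed levels of 29.7 to 67.2 FPKM in WT-N1 and WT-N3 against 182 to 496 FPKM in the *Pfn1*-KO group, and *Tcf21* was listed at 0 in both controls. All 12 proximal tubule markers were higher (155 to 372 against 2343 to 5499 FPKM), as were all 8 for distal tubule and thick ascending limb (up to 16.1 against 417 to 726 FPKM, with *Umod*, *Kcnj1*, *Cldn16* and *Pvalb* at 0 in both controls). Of the markers tested, 5 of 8 for collecting duct, 6 of 8 for endothelium and 5 of 7 for mesangium and smooth muscle were higher and 0 lower, and for macrophages and blood 0 of 8 were higher and 1 lower. Both controls listed 0 for 2, 4 and 2 of the tested markers of collecting duct, endothelium and mesangium. With quantile normalization (6.99% of all genes higher, 12.3% lower) 1 podocyte, 7 proximal tubule and 6 distal tubule and thick ascending limb markers were higher and 0 lower. In that fit 1 was higher and 1 lower for collecting duct, 2 and 1 for endothelium, 1 and 0 for mesangium, and 0 and 2 for macrophages and blood. The part of these shifts in the results on the noncoding RNAs was not tested.

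Of the 8 noncoding RNAs, 6 passed the filter of at least 1 FPKM in at least 2 libraries. Among them *Neat1*, *Gas5* and *Snhg1* were higher in the libraries labelled *Pfn1*-KO, none was lower, and *Malat1*, *Kcnq1ot1* and *Snhg8* did not pass the test. The 3 higher calls stand against 70.1% of all genes tested. With other scalings and tests the count of the 6 called higher ran from 0 to 5: it was 1 with median-ratio scaling (46.8% of all genes higher, 6.18% lower), 0 with quantile normalization (6.99% and 12.3%), 1 after rescaling to nuclear protein-coding genes (54.6% and 4.24%), 1 in limma-voom on recovered reads (49.7% and 1.45%), 4 with array weights (83.1% and 2.69%) and 5 after rescaling to TPM (75.4% and 0.67%). In FPKM *Neat1*, *Kcnq1ot1*, *Gas5* and *Snhg1* were above both controls in all 3 libraries labelled *Pfn1*-KO, as were 80.1% of all genes tested, and none of the 6 was below both, as were 3.49%. *Kcnq1ot1* and *Snhg1* reached 1 FPKM only in libraries labelled *Pfn1*-KO, so both passed the filter through that group alone. *Meg3* and *H19* were not tested, *Meg3* with no library and *H19* with only 1 at that level. After subtraction of the median shift of all genes, *Malat1* was at -3.12 and *Neat1* at 1.51 on the log2 scale, and the other 4 were between -0.42 and -0.01.

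**Figure D1:**
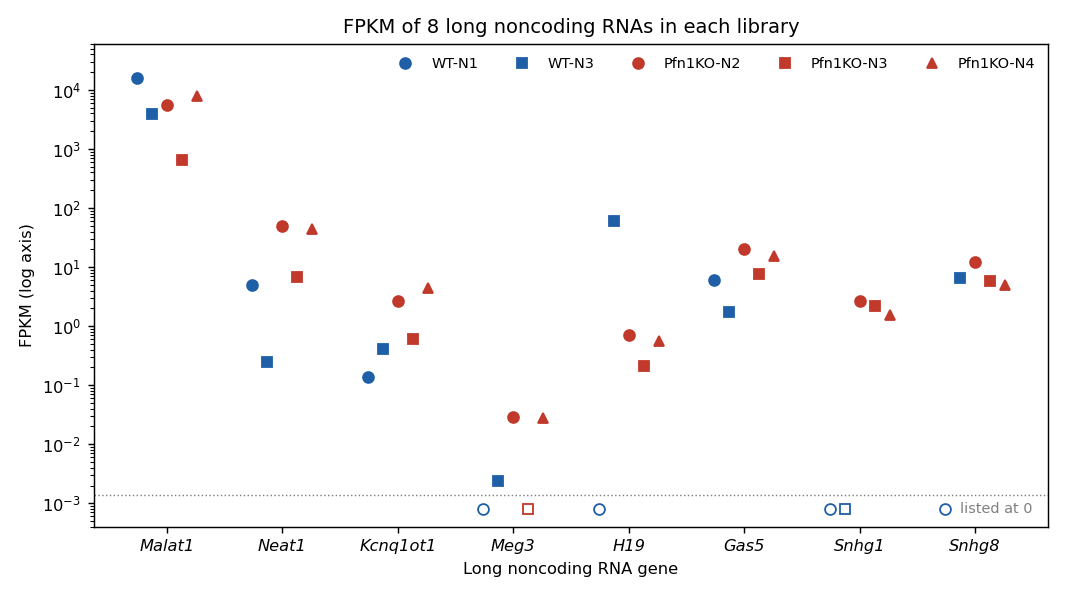
FPKM on a log axis for each of the 8 noncoding RNAs, with 1 point per library (blue, the 2 controls; red, the 3 libraries labelled Pfn1-KO); open symbols under the dotted line are libraries in which the RNA was listed at 0. Malat1 lay at 657 FPKM or more in every library, while Neat1, Kcnq1ot1, Gas5 and Snhg1 were higher in every red library than in both blue ones.

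*Malat1* was among the most abundant RNAs of every library. Its level was 15723 and 3969 FPKM in WT-N1 and WT-N3, and 5522, 657 and 7805 FPKM in Pfn1KO-N2, Pfn1KO-N3 and Pfn1KO-N4. The groups overlapped, the highest value was in a control, and the lowest was in Pfn1KO-N3. These levels rest on 2602547 and 632519 reads in the controls and on 890913, 114184 and 991260 reads in the others, or 10.98%, 2.77%, 3.86%, 0.459% and 5.45% of each library in the same order. By FPKM it ranked 4th and 7th of all genes in the controls and 9th, 20th and 2nd in the others. The log2 fold change was -1.37 (standard error, SE, 1.27, limma Benjamini-Hochberg adjusted p = 0.346), and did not pass the test. Values differed by 3.96 times between the controls and by 11.9 times among the libraries labelled *Pfn1*-KO.

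*Malat1* was below 0 on the log2 scale in all 15 alternative fits, from -3.21 with median-ratio scaling (adjusted p = 0.0502) to -0.27 without Pfn1KO-N3 (adjusted p = 0.778), and passed the test in none of them (limma with Benjamini-Hochberg). With quantile normalization it was -0.40, close to the median shift of -0.09 in that fit, so its distance below the other genes depends on the scaling. Without WT-N1, the library with the highest level, it was -0.38 (limma Benjamini-Hochberg adjusted p = 0.903).

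*Neat1*, the scaffold of paraspeckles, was read at 4.93 and 0.247 FPKM in WT-N1 and WT-N3 (2428 and 117 reads) and at 49.0, 6.67 and 45.0 FPKM in Pfn1KO-N2, Pfn1KO-N3 and Pfn1KO-N4 (23504, 3447 and 16981 reads). All 3 libraries labelled *Pfn1*-KO were above both controls, although Pfn1KO-N3 exceeded WT-N1 by little, and the controls differed from each other by 19.98 times. The log2 fold change was 3.26 (SE 1.04, limma Benjamini-Hochberg adjusted p = 0.0291).

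The direction of *Neat1* was the same in all 15 alternatives, with values of 1.47 to 4.38, but its call was lost in 8 of them. It was lost with median-ratio scaling (1.95, adjusted p = 0.173), quantile normalization (1.47, adjusted p = 0.329), rescaling to nuclear protein-coding genes (2.46, adjusted p = 0.101), a pseudocount of 0.1 (4.22, adjusted p = 0.0526) and limma-voom on recovered reads (4.32, adjusted p = 0.339), all with Benjamini-Hochberg adjustment in limma. Leaving out WT-N3, Pfn1KO-N2 or Pfn1KO-N4 ended the call too, at 2.13, 2.79 and 2.85 (limma Benjamini-Hochberg adjusted p = 0.0793, 0.131 and 0.118). After subtraction of the median of all genes *Neat1* was at 0.97 to 1.56 under the 4 other scalings, at 0.41 without WT-N3, at 0.43 with a pseudocount of 0.1, and at -1.52 in limma-voom, where the median of all genes was 5.84.

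**Figure D2:**
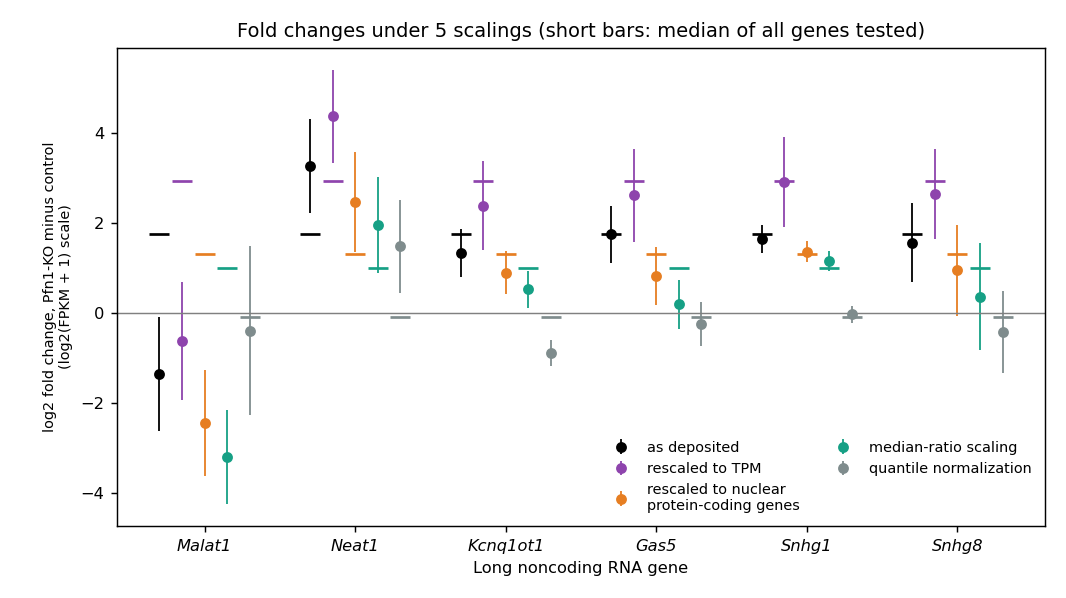
Log2 fold changes of the 6 noncoding RNAs tested under 5 scalings of the libraries, on the log2(FPKM + 1) scale; points are limma estimates, vertical lines 1 SE, and short horizontal bars the median of all genes in the same fit. Malat1 is below its bar and Neat1 above its bar in each scaling, while Kcnq1ot1, Gas5, Snhg1 and Snhg8 change sign with quantile normalization. That scaling gave Snhg1, listed at 0 in both controls, a control mean of 0.999.

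Because a ratio of 2 RNAs of the same library does not move when that library is rescaled, the nuclear RNAs were also compared within each library, as a description with no test. *Malat1* exceeded *Neat1* by 3188 and 16081 times in FPKM in WT-N1 and WT-N3, and by 113, 98.5 and 174 times in Pfn1KO-N2, Pfn1KO-N3 and Pfn1KO-N4. The groups did not overlap, and the nearest libraries, WT-N1 and Pfn1KO-N4, were 18.4 times apart. In geometric means the ratio was 7160 against 124, a difference of -5.85 on the log2 scale (SD 1.65 in the controls and 0.43 in the others), with -7.01 to -4.68 when single libraries were left out. This comparison was added after seeing the data. The same comparison of *Malat1* with each of the 4598 genes tested that were above 0 in every library gave a lower ratio in all 3 libraries labelled *Pfn1*-KO for 66.6% of genes, with a median difference of -3.42, and 13.1% of genes lay beyond *Neat1*.

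*Malat1* was at 2595 and 479 times the summed FPKM of the 3 host genes in WT-N1 and WT-N3, and at 157, 41.8 and 354 times in Pfn1KO-N2, Pfn1KO-N3 and Pfn1KO-N4. The groups did not overlap, but WT-N3 and Pfn1KO-N4 were only 1.35 times apart, and the log2 difference was -3.07 (SD 1.72 and 1.55). It was -1.86 without WT-N1, where *Gas5* was the only host gene read, and -4.29 without WT-N3. Against *Gas5* alone the controls lay close together, at 2595 and 2317, and the others at 269, 85.3 and 501 (log2 difference -3.44). The ratio of *Neat1* to the host genes was 0.814 and 0.0298 in WT-N1 and WT-N3 and 1.39, 0.424 and 2.04 in Pfn1KO-N2, Pfn1KO-N3 and Pfn1KO-N4. Here the groups overlapped, with Pfn1KO-N3 below WT-N1, and the log2 difference of 2.77 was 0.39 without WT-N3. The differences of *Malat1* to the host genes lie near the median of -3.42 for *Malat1* against all genes compared.

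**Figure D3:**
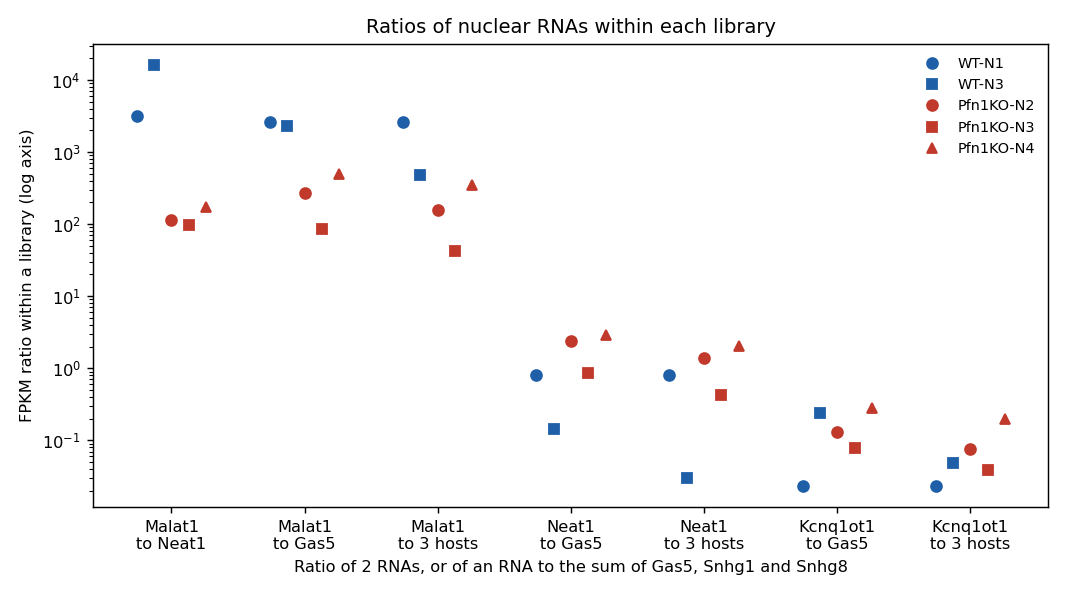
FPKM ratios within a library on a log axis, with 1 point per library (blue, controls; red, libraries labelled Pfn1-KO), for Malat1, Neat1 and Kcnq1ot1 over Gas5, over the sum of Gas5, Snhg1 and Snhg8, and for Malat1 over Neat1. Malat1 to Neat1 was 3188 or more in the controls and 174 or less in the others, whereas the ratios of Neat1 and Kcnq1ot1 to the 3 hosts overlapped between the groups.

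*Kcnq1ot1* was low per length in every library, at 0.140 and 0.408 FPKM in WT-N1 and WT-N3 and 2.68, 0.611 and 4.36 FPKM in Pfn1KO-N2, Pfn1KO-N3 and Pfn1KO-N4. The groups did not overlap, yet Pfn1KO-N3 was nearer to WT-N3 than to the rest of its group. Because the transcript is so long, these levels rest on 309 and 866 reads in the controls and on 5764, 1414 and 7375 in the others. The log2 fold change was 1.32 (SE 0.54, limma Benjamini-Hochberg adjusted p = 0.0610) and so did not pass the test, while it was -0.90 (adjusted p = 0.0785) with quantile normalization. It was called higher without Pfn1KO-N3 (1.81, adjusted p = 0.00862), with array weights (1.62, adjusted p = 0.00379), with TPM rescaling (2.37, adjusted p = 0.0244) and among genes above 0 in every library (adjusted p = 0.0365), in limma with Benjamini-Hochberg.

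*Kcnq1*, the potassium channel gene that overlaps *Kcnq1ot1* on the opposite strand, was listed at 0 for WT-N1 and WT-N3 but at 4.16, 2.95 and 2.90 FPKM in Pfn1KO-N2, Pfn1KO-N3 and Pfn1KO-N4. Whether reads were assigned by strand is not given in the sources used here, so reads from the 2 strands of this locus cannot be told apart. The ratio of *Malat1* to *Kcnq1ot1*, a comparison added after seeing the data, was 112282 and 9737 in the controls and 2061, 1077 and 1792 in Pfn1KO-N2, Pfn1KO-N3 and Pfn1KO-N4. The groups did not overlap, with a log2 difference of -4.38, and of -2.62 without WT-N1. Of the 4598 genes compared with *Malat1* in this way, 66.6% gave a lower ratio in every library labelled *Pfn1*-KO, with a median difference of -3.42.

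*Meg3*, an imprinted RNA of the *Dlk1* domain at chr12:109541001-109571726 on the plus strand, was hardly read at all. It had 0 and 1 reads in WT-N1 and WT-N3 and 12, 0 and 9 reads in Pfn1KO-N2, Pfn1KO-N3 and Pfn1KO-N4, with no level above 0.0287 FPKM. A difference was not detectable at this depth, and no fold is given.

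*H19*, a fetal RNA that also carries the microRNA gene *Mir675* and lies 625314 bases from *Kcnq1ot1* at chr7:142575529-142578143 on the minus strand, had a control level set by 1 library. It was listed at 0 in WT-N1 and at 60.9 FPKM in WT-N3 (3418 reads), where it ranked 252nd of all genes. In Pfn1KO-N2, Pfn1KO-N3 and Pfn1KO-N4 it was at 0.721, 0.212 and 0.559 FPKM (41, 13 and 25 reads). The controls thus lay on both sides of the other group, and with only WT-N3 above 1 FPKM the gene was not tested. Without a filter the log2 difference was -2.41 (limma Benjamini-Hochberg adjusted p = 0.202).

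The host genes differed in which controls they were read in. *Gas5*, host of box C/D snoRNAs at chr1:161034422-161038539 on the plus strand, was at 6.06 and 1.71 FPKM in WT-N1 and WT-N3 and at 20.6, 7.71 and 15.6 FPKM in Pfn1KO-N2, Pfn1KO-N3 and Pfn1KO-N4 (540 and 147 reads against 1786, 721 and 1066). The groups did not overlap, and Pfn1KO-N3 was the library nearest to the controls. *Gas5* rose by a log2 fold change of 1.74 (SE 0.63, limma Benjamini-Hochberg adjusted p = 0.0427), which is the shift of the median gene, and the sign turned with quantile normalization (-0.25).

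The call for *Gas5* was lost in 8 of 15 alternatives. It was 0.18 with median-ratio scaling (adjusted p = 0.797), 0.82 after rescaling to nuclear protein-coding genes (adjusted p = 0.301), 2.03 with a pseudocount of 0.1 (adjusted p = 0.0690) and 2.02 in limma-voom (adjusted p = 0.163), by limma with Benjamini-Hochberg. Without WT-N3, Pfn1KO-N2 or Pfn1KO-N4 it was 1.05, 1.46 and 1.65 (limma Benjamini-Hochberg adjusted p = 0.155, 0.159 and 0.140). The gene overlaps *Zbtb37*, which lies on the opposite strand and was at 0.437 and 1.08 FPKM for WT-N1 and WT-N3 and 5.46, 2.23 and 8.30 FPKM in the others, and reads of the overlap cannot be told apart.

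*Snhg1*, host of box C/D snoRNAs at chr19:8723475-8726443 on the plus strand, was listed at 0 for WT-N1 and WT-N3 but at 2.67, 2.22 and 1.52 FPKM in Pfn1KO-N2, Pfn1KO-N3 and Pfn1KO-N4 (183, 164 and 82 reads). Its values in these 3 libraries lay within 1.76 times of each other, the narrowest range among the 7 RNAs read in all 3. With each control library set at a floor of 3 reads, its mean level was 49.2-fold higher as deposited. This is not a lower limit. A control could list 0 where the other held many reads, as for *H19* (0 in WT-N1 and 3418 in WT-N3). On the log2(FPKM + 1) scale *Snhg1* rose by 1.63 (SE 0.31, limma Benjamini-Hochberg adjusted p = 0.00487), a value that depends on the pseudocount. It passed the test in 13 of 14 alternatives, each single library left out included, and with quantile normalization the value was -0.04 (limma Benjamini-Hochberg adjusted p = 0.889). *Snhg1* passed the filter only through the libraries labelled *Pfn1*-KO, so with 0 in both controls it could not come out lower as deposited. The alternatives refit the same 0 values and give no separate support. In quantile normalization the 0 of both controls became a mean of 0.999 on the log2 scale, so the sign there does not come from reads in the controls. A listing at 0 in both controls was common: it held for 86.1% of the 2652 long noncoding genes of the table and for 42.6% of protein-coding genes.

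*Snhg8*, host of the box H/ACA snoRNA *Snora24* at chr3:123507552-123508404 on the minus strand, was listed at 0 in WT-N1 and at 6.57 FPKM in WT-N3 (128 reads), and at 12.0, 5.80 and 4.96 FPKM in Pfn1KO-N2, Pfn1KO-N3 and Pfn1KO-N4 (236, 123 and 77 reads). The groups overlapped, with WT-N3 above 2 of the 3 libraries labelled *Pfn1*-KO. The log2 fold change of 1.55 (SE 0.87, limma Benjamini-Hochberg adjusted p = 0.142) turned to -0.42 with quantile normalization. It rested on WT-N1: without that library it was 0.09 (adjusted p = 0.889), and without WT-N3 it was 3.01 (adjusted p = 0.00234), both by limma, Benjamini-Hochberg. With TPM rescaling it was 2.63 (limma Benjamini-Hochberg adjusted p = 0.0151).

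The controls thus differed from each other in these RNAs. Of the 2, only WT-N3 held reads of *H19* and *Snhg8*, while *Malat1*, *Neat1* and *Gas5* were higher in WT-N1, by 3.96, 19.98 and 3.54 times. Among the libraries labelled *Pfn1*-KO, Pfn1KO-N3 was the lowest for 6 of the 8 RNAs, *Malat1*, *Neat1*, *Kcnq1ot1*, *Meg3*, *H19* and *Gas5*, and was the library with the most ribosomal RNA in that group.

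As a class, long noncoding RNA genes had a smaller median shift than protein-coding genes. Of 1122 long noncoding genes tested, 664 were higher (59.2%) and 17 lower (1.52%), with a median log2 fold change of 1.24, against 73.2% higher, 2.15% lower and a median of 1.93 over 11844 protein-coding genes. Both controls listed 0 for 875 of the 1122, and for 3810 of the protein-coding genes tested. Such genes passed the filter only through the libraries labelled *Pfn1*-KO, so their fold change could not be below 0. With all genes listed at 0 in both controls set at a floor of 3 reads per library, the medians of the long noncoding and the protein-coding genes were 1.06 and 1.91. The class medians and the places of single RNAs in the class depend on this filter, with and without the floor. *Malat1* lay in the lower tail of the class and *Neat1* in the upper one, with 1.96% and 97.6% of the class below them. *Kcnq1ot1*, *Snhg8*, *Snhg1* and *Gas5* were above its median, with 57.5%, 71.7%, 74.8% and 78.3% of the class below them. The difference between the classes was not tested.

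**Figure D4:**
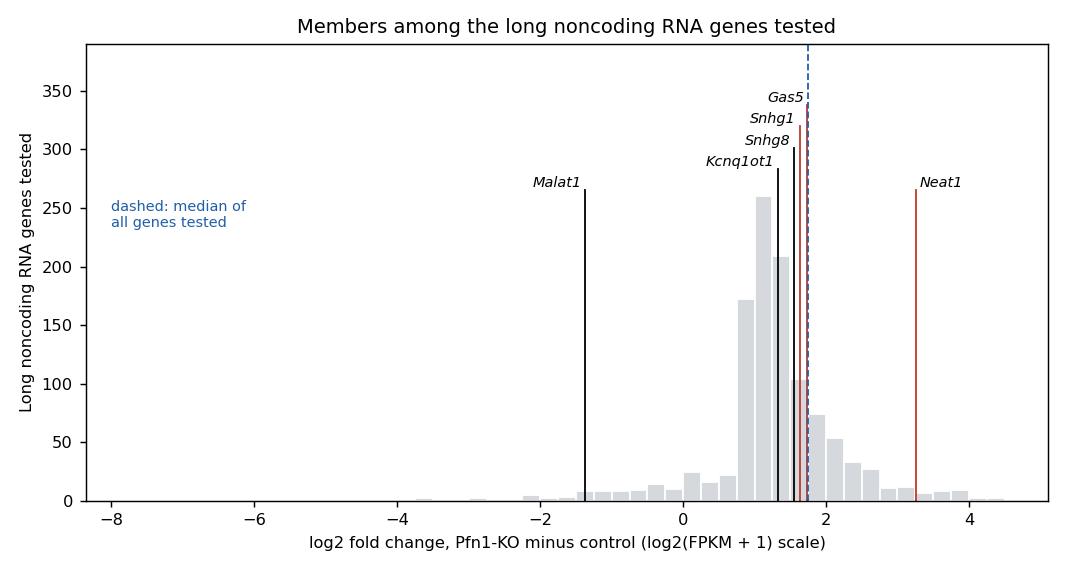
Number of long noncoding RNA genes tested per bin of log2 fold change (libraries labelled Pfn1-KO minus control, log2(FPKM + 1) scale; 1122 genes), with the 6 noncoding RNAs tested marked by lines, red for those that passed the test; the dashed line is the median of all genes tested, 1.75. Malat1 (-1.37) and Neat1 (3.26) lie in opposite tails, and Kcnq1ot1, Gas5, Snhg1 and Snhg8 lie between 1.32 and 1.74. Of the 1122 genes, 875 were listed at 0 in both controls and could not lie below 0.

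Lists of related genes, chosen like the 8 RNAs with earlier results of these data known, give the setting. Their counts as deposited are to be read against the 70.1% higher and 2.13% lower of all genes tested. Listed genes at 0 in both controls passed the filter only through the libraries labelled *Pfn1*-KO, so as deposited they could not come out lower. Counts from other fits go with other shares of all genes: 46.8% and 6.18% with median-ratio scaling, and 6.99% and 12.3% with quantile normalization. Of 14631 genes, 6446 were higher and 136 lower without Pfn1KO-N2, 10698 and 245 without Pfn1KO-N3, and 6938 and 155 without Pfn1KO-N4. Fits without WT-N1 or WT-N3 rest on a single control, so no list counts are given for them. Of 28 further nuclear or chromatin-bound noncoding RNAs, 19 are in the table and 14 were tested. Of these 11 were higher and 0 lower, with a median of 1.67 (1.60 with the 8 genes listed at 0 in both controls set at the floor of 3 reads). For these 8 genes a lower call was not possible as deposited. *Tug1*, a widely expressed RNA with nuclear and cytoplasmic pools, was at 1.11 and 0.950 FPKM in WT-N1 and WT-N3 and at 30.8, 10.9 and 31.0 FPKM in Pfn1KO-N2, Pfn1KO-N3 and Pfn1KO-N4, and rose by 3.50 (SE 0.57, limma Benjamini-Hochberg adjusted p = 0.00288). *2900097C17Rik* rose by 3.63 (SE 0.58, limma Benjamini-Hochberg adjusted p = 0.00268), from 2.94 and 2.28 FPKM to 52.7, 24.0 and 65.5 FPKM. *Mir22hg*, host of a microRNA, was listed at 0 for WT-N1 and WT-N3 but at 21.2, 9.28 and 14.4 FPKM in the others. Both *Tug1* and *2900097C17Rik* lost their calls with quantile normalization (adjusted p = 0.0986 and 0.0556) and in limma-voom (adjusted p = 0.125 and 0.0889), with Benjamini-Hochberg adjustment in limma. With quantile normalization 1 of the 14 was higher and 1 lower, and 6 and 7 were higher without Pfn1KO-N2 and Pfn1KO-N4.

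Of 18 further noncoding snoRNA host genes, 13 are in the table and 10 were tested, with 4 higher, 0 lower and a median of 0.84 (0.77 with 2 genes at the floor). *Snhg18* was listed at 0 for WT-N1 and WT-N3 but at 18.7, 8.63 and 13.1 FPKM in Pfn1KO-N2, Pfn1KO-N3 and Pfn1KO-N4. *Snhg11*, known for its expression in neurons and annotated as protein-coding in GENCODE vM21, was at 0.930 and 0 FPKM in WT-N1 and WT-N3 and at 16.8, 1.66 and 12.1 FPKM in the others, so the groups did not overlap, and it rose by 2.62 (SE 0.85, limma Benjamini-Hochberg adjusted p = 0.0308). Its call was lost without Pfn1KO-N2, Pfn1KO-N4 or WT-N3 (limma Benjamini-Hochberg adjusted p = 0.123, 0.119 and 0.0666), and with median-ratio scaling, quantile normalization or rescaling to nuclear protein-coding genes (1.68, 0.75 and 2.04, adjusted p = 0.123, 0.483 and 0.0789). *Epb41l4aos* split the controls in the way *H19* and *Snhg8* did, with 0 FPKM in WT-N1 and 37.9 FPKM in WT-N3, against 14.4, 7.95 and 4.35 FPKM in Pfn1KO-N2, Pfn1KO-N3 and Pfn1KO-N4. Its log2 fold change was 0.53 (adjusted p = 0.743), -2.11 without WT-N1 (adjusted p = 0.0194) and 3.17 without WT-N3 (adjusted p = 0.00271), each from limma with Benjamini-Hochberg. For the list, 2 genes were higher without Pfn1KO-N2 and 2 without Pfn1KO-N4, and with quantile normalization 1 was higher and 3 were lower.

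Among 33 protein-coding genes that host snoRNAs, all of them tested, 11 were higher and 4 lower, with a median of 1.18. *Hspa8*, a heat shock chaperone gene, went from 28.7 and 8.22 FPKM in WT-N1 and WT-N3 to 219, 230 and 339 FPKM in Pfn1KO-N2, Pfn1KO-N3 and Pfn1KO-N4, a rise of 3.97 (limma Benjamini-Hochberg adjusted p = 0.00383). *Eef2*, the translation elongation factor 2 gene, rose by 3.77 (limma Benjamini-Hochberg adjusted p = 0.00825), from 72.4 and 13.5 FPKM to 431, 346 and 588 FPKM. In contrast *Ncl*, which encodes the nucleolar protein nucleolin, fell from 222 and 446 FPKM to 68.1, 39.5 and 85.9 FPKM (-2.34 on the log2 scale, limma Benjamini-Hochberg adjusted p = 0.0204). *Wdr43*, a gene of ribosome assembly, fell from 44.4 and 57.5 FPKM to 12.2, 12.4 and 13.2 FPKM (-1.92 on the log2 scale, limma Benjamini-Hochberg adjusted p = 0.0116). *Rpl4*, a ribosomal protein gene, was at 236 and 159 FPKM for WT-N1 and WT-N3 and 369, 168 and 481 FPKM for the rest (0.68 on the log2 scale, limma Benjamini-Hochberg adjusted p = 0.411), and at -1.15 with median-ratio scaling. The counts moved with single libraries: 3 were higher and 0 lower without Pfn1KO-N2 and without Pfn1KO-N4, and 6 higher and 2 lower without Pfn1KO-N3. *Ncl* lost its call without Pfn1KO-N2, Pfn1KO-N4 or WT-N3, *Wdr43* without Pfn1KO-N2 or Pfn1KO-N4, and *Eef2* without WT-N3. After rescaling to TPM *Ncl* (-1.61, adjusted p = 0.184) and *Wdr43* (-1.24, adjusted p = 0.278) lost their calls, as did *Eef2* with median-ratio scaling (1.97, adjusted p = 0.0682), in limma with Benjamini-Hochberg. With median-ratio scaling 2 were higher and 10 lower, and with quantile normalization 2 and 6.

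The proteins of the bodies in which *Neat1* is found were counted as a list of 22 paraspeckle genes, all tested, of which 9 were higher and 0 lower, with a median of 1.16. *Nono*, which encodes an essential paraspeckle protein, was at 6.07 and 0.341 FPKM in WT-N1 and WT-N3 and at 32.1, 24.1 and 35.7 FPKM in Pfn1KO-N2, Pfn1KO-N3 and Pfn1KO-N4. As for *Neat1*, WT-N3 was the lowest library. *Nono* rose by 3.34 (SE 0.75, limma Benjamini-Hochberg adjusted p = 0.00846), and its call was lost without Pfn1KO-N2 (limma Benjamini-Hochberg adjusted p = 0.0552). It was also lost with median-ratio scaling (1.97, adjusted p = 0.105), rescaling to nuclear protein-coding genes (2.51, adjusted p = 0.0525), quantile normalization (1.53, adjusted p = 0.132) and limma-voom (4.34, adjusted p = 0.0537), each with Benjamini-Hochberg adjustment. Its partner *Pspc1* was listed at 0 for WT-N1 and WT-N3 but at 8.88, 2.64 and 8.23 FPKM in the others. *Sfpq*, the third protein of that family, was at 17.4 and 33.3 FPKM for WT-N1 and WT-N3 and 76.6, 23.7 and 71.4 FPKM in the others, with overlap between the groups (1.04, limma Benjamini-Hochberg adjusted p = 0.217, and -0.75 with median-ratio scaling). *Hnrnpa1*, a splicing factor gene, was at 1.46 (adjusted p = 0.0706, and 0.0165 without Pfn1KO-N3, both from limma with Benjamini-Hochberg) and at -0.32 with median-ratio scaling. With median-ratio scaling 4 of the list were higher and 7 lower, with quantile normalization 0 and 5, and without Pfn1KO-N2 4 were higher and without Pfn1KO-N4 6.

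The RNase P subunits, *Elac2* and *Mettl16*, listed because their proteins process or bind the ends of *Malat1* and *Neat1*, had 10 of 12 genes tested, with 6 higher, 0 lower and a median of 1.62 (1.52 with 5 genes at the floor). The 5 genes at the floor were all called higher and could not come out lower as deposited, since they passed the filter only through the libraries labelled *Pfn1*-KO. *Rpp14*, an RNase P subunit gene, was listed at 0 for WT-N1 and WT-N3 but at 10.7, 8.88 and 8.08 FPKM in Pfn1KO-N2, Pfn1KO-N3 and Pfn1KO-N4. *Elac2*, the gene of the enzyme that trims the small RNA released from *Malat1*, was listed at 0 in both controls as well and at 6.94, 7.54 and 5.45 FPKM. With quantile normalization 1 was higher and 1 lower.

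Of 19 NMD genes, whose proteins degrade spliced *Gas5* and *Snhg1* RNA, 9 were higher and 4 lower, with a median of 1.55 (1.44 with 2 genes at the floor). *Smg1*, the kinase gene of the pathway, rose by 3.60 (SE 0.51, limma Benjamini-Hochberg adjusted p = 0.00198), from 1.10 and 0.0018 FPKM in WT-N1 and WT-N3 to 19.6, 11.2 and 20.6 FPKM in Pfn1KO-N2, Pfn1KO-N3 and Pfn1KO-N4. *Upf3b* and *Upf2*, which encode the bridge between the exon junction complex and the helicase UPF1, went the other way. *Upf3b* fell from 60.1 and 103 FPKM to 12.3, 4.91 and 13.5 FPKM (-2.94 on the log2 scale, limma Benjamini-Hochberg adjusted p = 0.00677). *Upf2* fell from 118 and 86.1 FPKM to 18.1, 10.96 and 22.2 FPKM (-2.54 on the log2 scale, limma Benjamini-Hochberg adjusted p = 0.00789). *Smg1* lost its call with quantile normalization (1.43, adjusted p = 0.0625) and *Upf2* after rescaling to TPM (-1.85, adjusted p = 0.109), by limma, Benjamini-Hochberg. Without Pfn1KO-N2 6 of the list were higher and 2 lower, without Pfn1KO-N4 also 6 and 2, and with quantile normalization 1 and 5.

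Of 17 genes for the proteins that bind or assemble snoRNAs, 16 were tested, with 3 higher, 3 lower and a median of 1.07. *Pih1d1* and *Snu13*, for an assembly factor and a core protein of box C/D particles, were listed at 0 in both controls and reached 3.22 to 6.73 FPKM and 2.35 to 6.01 FPKM in the libraries labelled *Pfn1*-KO. *Znhit6*, for another assembly factor, fell from 15.2 and 40.1 FPKM to 6.37, 3.45 and 7.06 FPKM (-2.01 on the log2 scale, limma Benjamini-Hochberg adjusted p = 0.0210). *Dkc1*, for the pseudouridine synthase of box H/ACA particles, fell from 15.1 and 53.6 FPKM to 7.16, 6.67 and 6.88 FPKM (-1.91 on the log2 scale, limma Benjamini-Hochberg adjusted p = 0.0301). Both *Znhit6* and *Dkc1* lost their calls without WT-N3 or any 1 of the libraries labelled *Pfn1*-KO, after rescaling to TPM and in limma-voom (limma Benjamini-Hochberg adjusted p from 0.0591 to 0.257). Without Pfn1KO-N2, Pfn1KO-N3 or Pfn1KO-N4 each time 0 of the list were lower, and with quantile normalization 0 were higher and 5 lower.

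Of 20 imprinted neighbours of *Kcnq1ot1*, *Meg3* and *H19*, 13 are in the table and 7 were tested, with 4 higher, 0 lower and a median of 1.38. *Osbpl5*, a lipid transfer protein gene of the *Kcnq1* domain, was at 0 and 0.276 FPKM in WT-N1 and WT-N3 and at 15.4, 15.4 and 15.6 FPKM in Pfn1KO-N2, Pfn1KO-N3 and Pfn1KO-N4, and rose by 3.87 (SE 0.37, limma Benjamini-Hochberg adjusted p = 0.00150). *Cd81*, a tetraspanin gene, rose by 2.82 (limma Benjamini-Hochberg adjusted p = 0.0126), a call lost without Pfn1KO-N2 or Pfn1KO-N3 (limma Benjamini-Hochberg adjusted p = 0.0737 and 0.0586). It was lost too in limma-voom and with median-ratio scaling, rescaling to nuclear protein-coding genes and quantile normalization (3.28, 1.26, 1.89 and 1.03, limma Benjamini-Hochberg adjusted p = 0.0637, 0.1998, 0.0807 and 0.261). *Cdkn1c*, the cell cycle inhibitor gene silenced by *Kcnq1ot1* on the paternal chromosome and a known podocyte gene, was at 12.4 and 93.0 FPKM in WT-N1 and WT-N3 and at 32.6, 144 and 9.57 FPKM in Pfn1KO-N2, Pfn1KO-N3 and Pfn1KO-N4. Its groups overlapped. Pfn1KO-N3 was the highest library, where *Kcnq1ot1* was lowest in its group, but of the controls WT-N3 was the higher for both genes (*Kcnq1ot1* 0.408 against 0.140 FPKM). A relation between the 2 genes was not tested. The log2 fold change of *Cdkn1c* was 0.07 (limma Benjamini-Hochberg adjusted p = 0.964), below 0 with median-ratio scaling (-1.69) and quantile normalization (-0.97). *Nap1l4*, a histone chaperone gene, was at 19.6 and 21.6 FPKM for WT-N1 and WT-N3 and 31.1, 22.3 and 23.9 FPKM in the others, with 0.30 as deposited (adjusted p = 0.587) and -1.47 with median-ratio scaling (adjusted p = 0.0342, limma with Benjamini-Hochberg). Without Pfn1KO-N2 or Pfn1KO-N3 2 of the list were higher.

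The long noncoding gene most like each of the 6 RNAs tested was sought by Pearson correlation of log2(FPKM + 1) over the 5 libraries, among the genes of that class above 0 in every library (88 or 89 compared). The values compared share library and depth, and the correlations are a description. *Gas5* was most like *Neat1* (r = 0.99), whose own nearest gene was *Gm45792* (r = 0.99). *Malat1* was most like *D930016D06Rik* (r = 0.99), which ran from 30.5 and 14.1 FPKM in WT-N1 and WT-N3 to 14.6, 4.95 and 17.7 FPKM in Pfn1KO-N2, Pfn1KO-N3 and Pfn1KO-N4. *Malat1* and *Neat1*, for all that they lie side by side and share their ends, had r = 0.18. *Kcnq1ot1* was most like *Gm13415* (r = 0.99), *Snhg1* like *Gm10076* (r = 0.97) and *Snhg8* like *4930556M19Rik* (r = 0.91).

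The 8 RNAs also differ in purine content. The highest share of purines in any 50 bases was 100% in *Neat1* and *Kcnq1ot1*, 90.0% in *Meg3*, 86.0% in *Malat1* and 84.0% in *H19*, but 74.0% in *Gas5* and *Snhg1* and 68.0% in *Snhg8*, against medians of 74.0% over the long noncoding and 78.0% over the protein-coding genes tested. The windows of *Malat1* and *Neat1* are shown as examples of nuclear RNAs and that of *Gas5* as an example of a host gene at the long noncoding median. Purines are in capitals (GENCODE vM21, GRCm38, chr19:5801888-5801937 and chr19:5832759-5832808 on the minus strand and chr1:161035989-161036038 on the plus strand).
Malat1 window: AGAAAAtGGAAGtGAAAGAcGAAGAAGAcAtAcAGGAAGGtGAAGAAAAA
Neat1 window: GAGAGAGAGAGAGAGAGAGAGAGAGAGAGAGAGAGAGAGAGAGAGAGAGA
Gas5 window: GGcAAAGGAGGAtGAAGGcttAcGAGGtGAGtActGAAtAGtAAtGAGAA
The *Neat1* window is a repeat of GA. All 5 nuclear or imprinted RNAs lay above the host genes in this measure, and 4 of the 5 are longer transcripts with more windows than any host transcript used, while the *H19* transcript, of 2286 bases, is shorter than those of *Gas5* (2556 bases) and *Snhg1* (2728 bases). Whether purine content goes with the fold changes was not tested.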

How the data were processed

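TRAP RNA-seq libraries of podocytes, 2 control and 3 labelled *Pfn1*-KO, were analysed from 1 deposited table of FPKM. Per the labels and methods, the authors used fastp 0.20 for trimming, STAR 2.7.9 for alignment (GRCm38.p6) and featureCounts 2.0.0 for counting per gene. The methods name TPM, but the column sums differ, so the deposited values were taken as FPKM. The authors' own test was DESeq2 1.30.1 on counts, which are not used here. Columns were assigned to groups by name.

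Of 23010 rows, 21019 had values, and 20985 IDs matched GENCODE vM21, used for names, places and lengths. FPKM times length gave whole reads for 20414 genes (tolerance 0.02), which set the library sizes.

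Groups were compared with limma 3.58.1 in R 4.3.3 (trended empirical Bayes, two-sided, Benjamini-Hochberg adjusted p under 0.05) on log2(FPKM + 1), over the 14631 genes that reached 1 FPKM in 2 or more libraries. The p-values measure the spread between these pooled samples. An exact permutation test of 2 against 3 libraries cannot go below p = 0.1, so none is given. The fit was tested on simulated data: of 14631 genes with 200 changed, 6.2% of changes of 2 on the log2 scale were recovered and 48.0% of changes of 4, with 1.0 false calls on average. Both groups were drawn around the *Pfn1*-KO means, with no shift shared by most genes and no set of genes at 0 in the controls. The deposited data have both, so these rates do not carry over to the calls given here. Alternatives were other filters, pseudocounts of 0.1 and 5, array weights, 4 scalings, limma-voom on recovered reads, and each library left out. From each list the text names the 2 genes highest and 2 lowest among those called and the 2 most abundant. A gene that this rule selects is not reported here. Sequences were read from GENCODE vM21 transcripts and the RefSeq promoter table. Python 3.11.15, pandas 2.3.3, numpy 2.4.6 and matplotlib 3.10.9 were used.

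The 8 RNAs, the lists and the tests were chosen with earlier results of these data known. The ratios of *Malat1* to *Neat1* and to *Kcnq1ot1* were added after seeing the data.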

Additional observations from a re-analysis of the deposited data

How the results depend on the processing

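The count of genes higher, 10251 as deposited, was 2440 among genes above 0 in every library, 1023 with quantile normalization, and 6446 to 10698 with single libraries left out. The count of genes lower, 312, was 904 with median-ratio scaling, 1806 with quantile normalization, 98 after rescaling to TPM, 620 after rescaling to nuclear protein-coding genes, 206 in limma-voom, and 136 to 475 with single libraries left out. Of the 8 noncoding RNAs, 3 were higher as deposited, and 1 with a pseudocount of 0.1, 1 with median-ratio scaling, 0 with quantile normalization, 5 after rescaling to TPM, 1 after rescaling to nuclear protein-coding genes, 1 in limma-voom, and 1 to 4 with single libraries left out. None was lower in limma in any of these. The sign turned with quantile normalization for *Kcnq1ot1* (-0.90), *Gas5* (-0.25), *Snhg1* (-0.042), *Snhg8* (-0.42), *Epb41l4aos* (-1.04), *Cdkn1c* (-0.97) and *Nap1l4* (-0.99), and with median-ratio scaling for *Epb41l4aos* (-0.72), *Rpl4* (-1.15), *Sfpq* (-0.75), *Hnrnpa1* (-0.32), *Cdkn1c* (-1.69) and *Nap1l4* (-1.47). It turned after rescaling to nuclear protein-coding genes for *Epb41l4aos* (-0.11), *Rpl4* (-0.40), *Sfpq* (-0.0099), *Cdkn1c* (-0.97) and *Nap1l4* (-0.74), for *Epb41l4aos* with a pseudocount of 5 (-0.14), and for *Cdkn1c* with array weights (-0.35). With single libraries left out *Epb41l4aos* ran from -2.11 to 3.17 and *Cdkn1c* from -1.34 to 1.47. The log2 differences of ratios ran from 0.39 to 5.16 for *Neat1* to the host genes, from -7.01 to -4.68 for *Malat1* to *Neat1* and from -6.15 to -2.62 for *Malat1* to *Kcnq1ot1*. The causes of these changes were not tested. No paired analysis was possible because the columns carry no replicate number of the labels, so the fit with a replicate block was not run. With 2 controls that differ from each other and 5 libraries in all, changes in single RNAs have little precision. *Meg3* had few reads in every library. Listings at 0 in a control did not follow library size: *H19* had 0 reads in WT-N1 (23704366 reads in all) and 3418 in WT-N3 (22822635 reads in all). The cause of such listings was not tested.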
